A study of Sparassis latifolia with 12 samples.

Results

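In a chosen range of levels, 102 mRNAs of Sparassis latifolia varied by no more than 1.6 times over all libraries. The libraries ran from harvest through 24 days of cold storage. These mRNAs were chosen by a rule on FPKM, the fragments counted on a transcript, scaled for its length and for the mapped fragments of the library. An mRNA was taken when its mean over the 12 libraries was from 50 to under 1000 and its highest value was at most 1.6 times its lowest. Of 13103 mRNAs listed, 3268 lay in the level range, and the 102 are 3.12% of these and 0.778% of all. They are called stable mRNAs here. All 12 values of each mRNA were used by the rule, so the levels and spreads of the members are a description. Counts of members in the test across all mRNAs are given with the share of all mRNAs at the main setting, and nothing is read from them.

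The libraries came from fruiting bodies of 1 cultivated strain, Minxiu No.1, packed in oriented polypropylene film and kept at 4 ℃. Fresh fruiting bodies formed group A (day 0), and those frozen after 8, 16 and 24 days formed groups B, C and D, with 3 replicates in each. All groups therefore share the strain, and by design differ in the time kept in the film at 4 ℃, which was 0 days for group A. Fresh and stored groups thus differ in time, in cold storage and in keeping in the film at once. Their sequencing differed too. The study lists a lower share of uniquely mapped reads in every library of groups B and D than in groups A and C. It also lists more clean reads in every library of group B than in groups A and D. How far this bears on the FPKM was not tested. The sources do not say whether the replicates of a day came from separate fruiting bodies or packages, so the spread between them may be technical.

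S. latifolia is an edible cauliflower mushroom that goes on respiring after harvest and ages in storage. When transcripts are measured by RT-qPCR, a target is expressed relative to a reference gene amplified from the same RNA, so a reference that itself moves with storage shifts every target. Reference genes are usually taken from functions that all cells need, such as glycolysis, the cytoskeleton, translation or protein turnover. The study used GAPDH, a glycolytic enzyme, as its internal control, and the sources used here give no gene identifier for it, so its level was not looked up. The files do not pair the EVM identifiers with products. Members are therefore given by identifier only, their functions and sequences were not analysed here, and their spread is what the data describe.

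Steadiness at this level was uncommon, and most members lay in the lower part of the level range. In the level range the median mRNA had a ratio of highest to lowest FPKM of 3.60 and a coefficient of variation (CV, the SD over the 12 libraries divided by their mean) of 40.0%. The members had a median ratio of 1.5 and a median CV of 12.8%, with CVs of 4.51% to 17.1%. Only 12 members had a CV under 10%, 19 had a ratio of at most 1.4, and 3 had a ratio of at most 1.2. Member means ran from 50.6 to 475 FPKM with a median of 66.9. Of the members, 82 had a mean from 50 to under 100, 16 from 100 to under 200 and 4 from 200 to under 500, while 0 of the 106 mRNAs from 500 to under 1000 met the rule. As shares of their level ranges these are 4.49%, 1.87% and 0.837%. Together the members held 0.913% to 1.28% of the summed mRNA FPKM of a library.

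**Figure D1:**
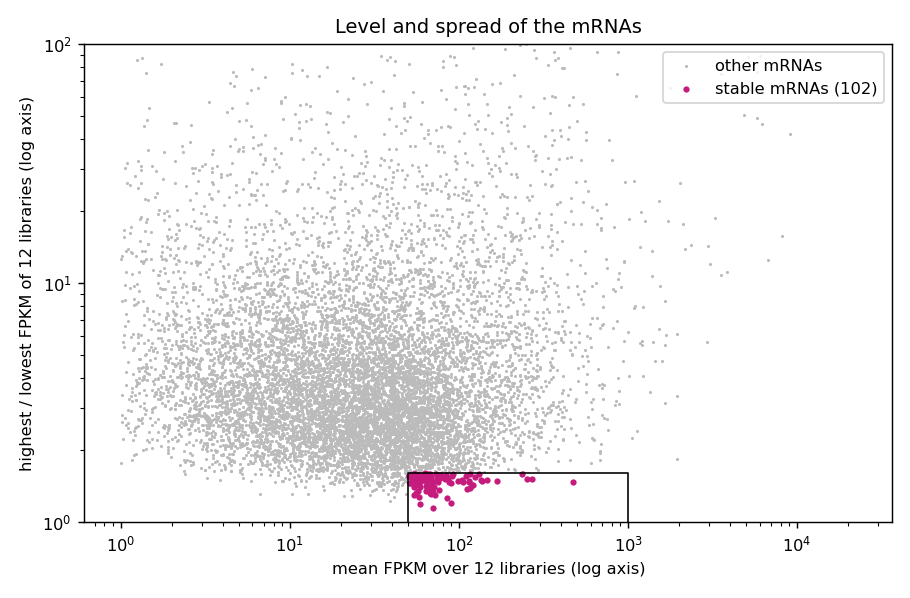
Mean FPKM over the 12 libraries (horizontal, log axis) against the highest divided by the lowest FPKM (vertical, log axis), with 1 point for each mRNA and the 102 stable mRNAs coloured. The box marks the rule, and its right side is empty because no mRNA with a mean of 500 or more met it. mRNAs with a mean under 1, a ratio over 100 or any value listed at 0 are not drawn.

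The limits of the rule cut through a continuous distribution. The members nearest under the ratio limit were EVM0011402 (ratio 1.597, mean 131 FPKM) and EVM0012461 (1.599, mean 63.2). The nearest mRNAs above it were EVM0006055 (ratio 1.60014, mean 74.3) and EVM0004444 (1.602, mean 74.5). The member of lowest mean was EVM0011329, at 50.6 FPKM, and EVM0007946, with a ratio of 1.47 and a mean of 49.6, fell just below the range. The member of highest mean was EVM0000516, at 475 FPKM. None of the 66 mRNAs with a mean of 1000 or more met the ratio limit, and the lowest ratio among them was that of EVM0009861, 1.83 at a mean of 1952 FPKM. Below the level range 114 mRNAs with a mean from 20 to under 50 met the ratio limit, or 3.74% of 3046, and 48 from 5 to under 20, or 1.64% of 2930.

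EVM0004096 had the lowest CV of all members. Its FPKM, in the order of replicates 1 to 3, was 73.5, 71.1 and 65.3 in fresh fruiting bodies, 66.9, 65.0 and 69.6 after 8 days, 74.5, 68.6 and 68.4 after 16 days, and 72.6, 70.6 and 72.7 after 24 days. The lowest and the highest value, in group B replicate 2 and group C replicate 1, differed by 1.15 times. In time order its means were 70.0 ± 4.24, 67.1 ± 2.30, 70.5 ± 3.44 and 72.0 ± 1.16 FPKM (SD, n = 3 each), so the day means lay closer together than the replicates of day 0. On the log2(FPKM + 1) scale limma put it at -0.09, 0.00588 and 0.02 from the fresh mean on days 8, 16 and 24 (standard error 0.132).

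EVM0000239 was the second in order, with a CV of 5.83% and a mean of 89.3 FPKM. Fresh replicates had 85.3, 99.1 and 82.6, those of 8 days 96.1, 92.7 and 92.4, those of 16 days 83.6, 83.3 and 90.4, and those of 24 days 88.9, 88.8 and 87.8. Both its highest and its lowest value belonged to fresh fruiting bodies, replicates 2 and 3 of group A. On day 24 its SD was 0.648 around a mean of 88.5 FPKM (n = 3), against 8.85 around 89.0 on day 0.

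EVM0007459 was the third, with a CV of 5.96% and a mean of 58.8 FPKM. The fresh values of 63.0, 57.4 and 61.9 FPKM were followed by 61.3, 53.8 and 57.3 after 8 days, 57.8, 57.8 and 56.5 after 16, and 62.1, 63.7 and 53.2 after 24. The 4 groups overlapped, and the lowest and highest values were both from day 24. Its day means differed by 1.06 times at most.

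The other 9 members with a CV under 10% covered means of 54.4 to 85.2 FPKM. EVM0003743 (mean 85.2, CV 7.43%) ran from 75.3 in group D replicate 1 to 94.8 in group C replicate 1, and EVM0010280 (mean 72.0, CV 7.53%) from 65.2 in group D replicate 1 to 84.6 in group B replicate 1. EVM0007752 (mean 58.1, CV 7.53%) lay between 51.4 in group A replicate 2 and 65.6 in group B replicate 3. EVM0005086 (mean 54.6, CV 8.59%) was at 49.7 to 60.2 FPKM in 11 libraries and at 42.1 in group A replicate 2, which alone set its ratio of 1.43. EVM0007590 (mean 54.4, CV 9.33%) had its highest values in group A replicate 2 and group B replicate 2, 64.3 and 62.3 FPKM, and 49.4 to 58.2 in the rest. EVM0012271 (mean 58.8, CV 9.84%) had 50.2 FPKM in group A replicate 2 and 47.2 in group D replicate 2, and 56.1 to 66.1 in the rest.

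Of these 12, 3 had a stored group that did not overlap with the fresh fruiting bodies, beside 71.5% of all mRNAs tested. EVM0009891 (mean 67.8, CV 8.16%) had 58.5, 68.0 and 60.5 FPKM on day 0 and 69.1, 76.5 and 73.4 on day 24, all above the fresh values. Its means were 62.4 ± 5.03, 66.1 ± 3.06, 69.8 ± 4.93 and 73.0 ± 3.73 over days 0, 8, 16 and 24 (SD, n = 3 each). EVM0010044 (mean 63.6, CV 8.35%) was higher on day 8, at 67.1, 72.8 and 70.2 FPKM, than on day 0, at 66.5, 62.1 and 60.4. EVM0004058 (mean 76.5, CV 9.41%) had 71.3, 66.9 and 70.6 FPKM on day 0, and all its values on day 8 (72.4 to 91.1) and on day 24 (73.7 to 79.6) lay above them.

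**Figure D2:**
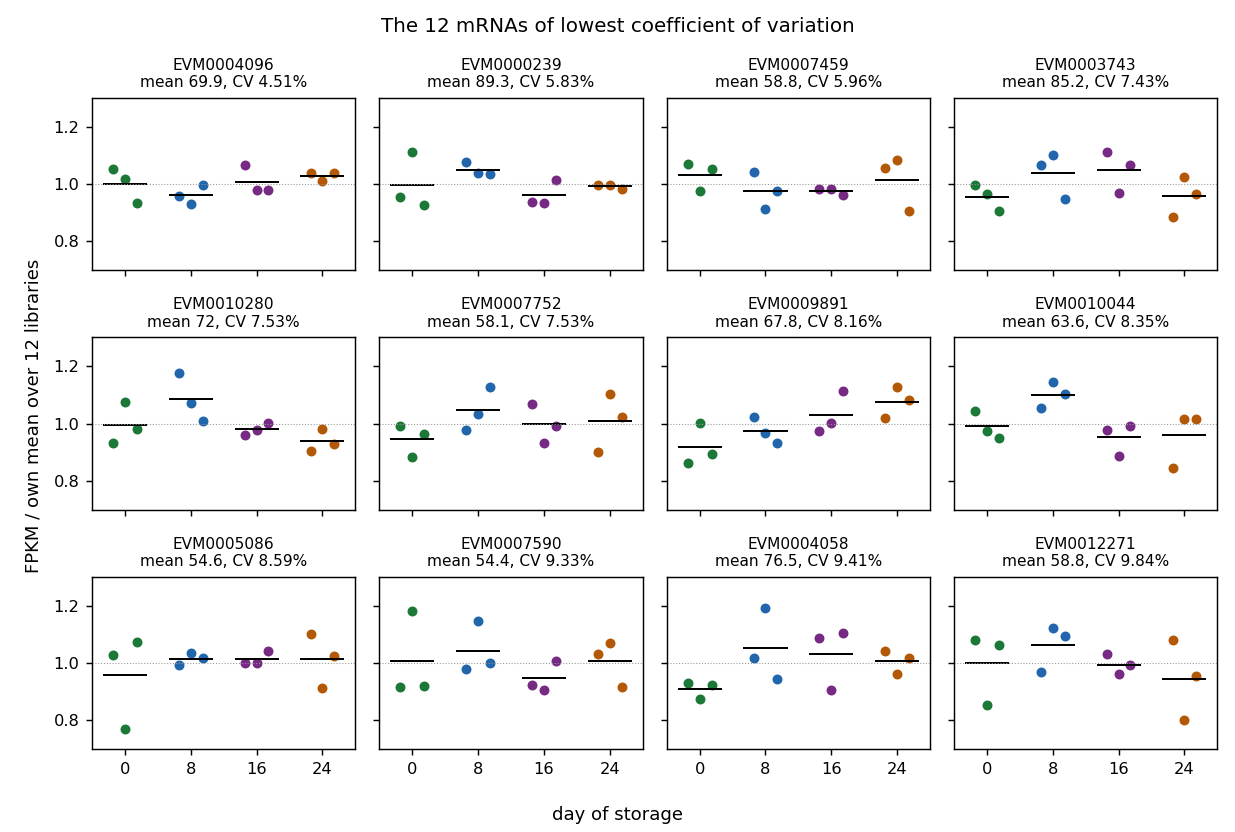
FPKM divided by the mRNA's own mean over the 12 libraries, for the 12 members of lowest CV, against the day of storage. Points are libraries (replicates 1 to 3 from left to right) and bars are means of 3. The lowest point of EVM0005086, 42.1 FPKM in group A replicate 2, stands away from its others, and EVM0009891 has its lowest mean on day 0 and its highest on day 24.

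Stable mRNAs of higher level were few. EVM0009759, with a mean of 119.6 FPKM, was the steadiest from 100 to under 200 (CV 10.02%). It had 100.4, 143.9 and 100.8 FPKM in group A and 113.6 to 130.7 in the 9 stored libraries, so the spread of this mRNA lay in the fresh replicates. EVM0012596 was the steadiest from 200 to under 500 (mean 271, CV 11.6%). Fresh replicates had 262.7, 253.4 and 205.3 FPKM, and all values of day 8 (311.8, 307.5 and 289.1) and day 16 (300.9, 276.1 and 287.5) lay above them, while those of day 24 were 241.3, 269.7 and 243.9. EVM0000516, the most abundant member, went from 457.8, 417.4 and 390.3 FPKM when fresh to 410.3, 400.9 and 466.4 after 8 days, 459.2, 486.9 and 559.6 after 16, and 529.2, 540.3 and 576.3 after 24. Its mean of day 24 was 1.3 times that of day 0, and its groups A and D did not overlap. The other 2 members of at least 200 FPKM were EVM0010587 (mean 252, CV 12.4%) and EVM0005124 (mean 236, CV 14.5%).

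The day of highest mean differed between members. Of the 4 day means, day 24 held the highest in 38 members and day 8 in 36, fresh fruiting bodies in 23, and day 16 in just 5, one being EVM0003743. Day 16 held the lowest in 33 members, fresh fruiting bodies in 31, day 24 in 23 and day 8 in 15. The highest and lowest day means differed by 1.06 to 1.45 times (median 1.23), within 1.1 times in 9 members and within 1.2 times in 42. The widest was EVM0007901, with 55.1, 56.9 and 59.3 FPKM when fresh, 47.7 to 53.4 after 16 days and 72.8, 74.4 and 73.0 after 24. EVM0003907 had the closest day means, 1.06 times apart, but single values of 52.5 and 82.2 FPKM in group A replicates 1 and 2. A CV can thus come from replicates or from days, and these 2 members show the extremes.

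By library, group C replicate 2 stood lowest. It held the lowest value of 18 members and the highest of 0, only 19 of the 102 were above their own mean there, and the median deviation from the own mean was -0.14 on the log2 scale. In the other libraries the median deviation was from -0.07 to 0.05 and 34 to 62 members were above their own mean. The scatter of the members' deviations was 0.128 to 0.138 in group C and 0.153 or more elsewhere, with 0.194, 0.198 and 0.179 in the 3 fresh libraries (SD over members, log2). Over the 5151 pairs of members the median Pearson's r of log2 FPKM across the 12 libraries was 0.08, from -0.88 to 0.92, with 49 pairs at 0.8 or more and 11 as strongly negative. All pairs share the same libraries and scaling, and the values are given as a description.

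**Figure D3:**
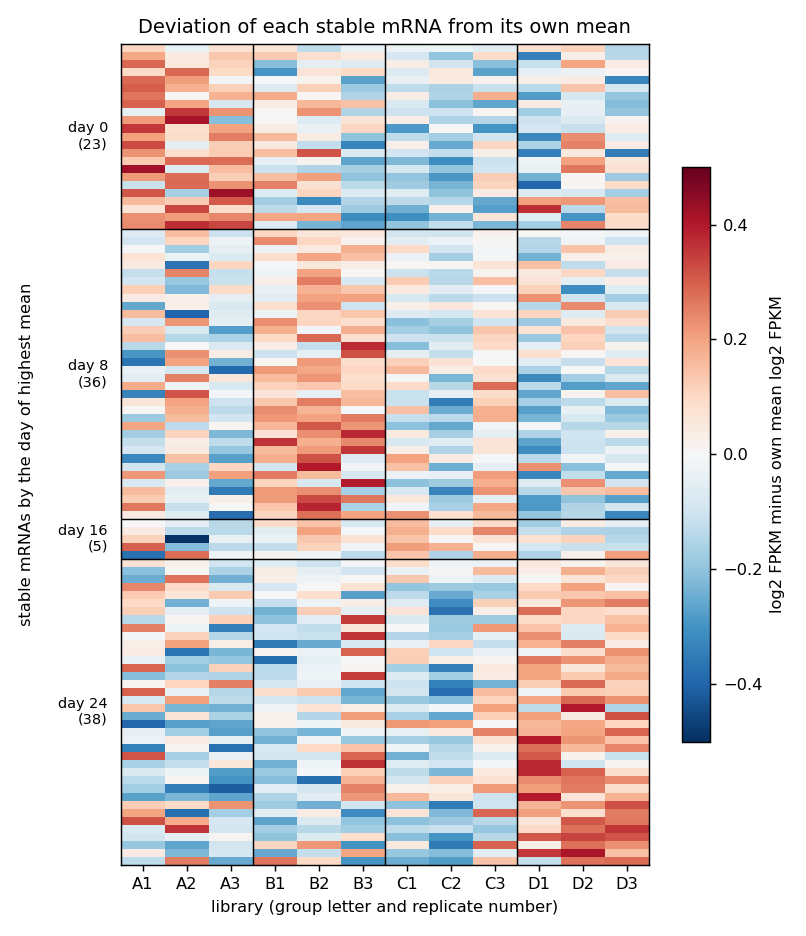
Each row is 1 of the 102 stable mRNAs and each column 1 library, and the colour is log2 FPKM minus the mRNA's own mean (the scale ends at -0.5 and 0.5). Rows are grouped by the day of highest mean and, within a group, ordered by CV. The column of group C replicate 2 is mostly blue, where only 19 of 102 members were above their own mean, and 38 members have their highest day mean on day 24.

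In the comparison of stored with fresh fruiting bodies across all mRNAs, the members could hardly be called differentially expressed, because the rule caps their fold change. All 102 members entered the test, which took every mRNA that reached an FPKM of 1 in 3 or more libraries. With both an adjusted p under 0.05 (limma) and a change of 1 or more on the log2 scale required, 0 members were called after 8, 16 or 24 days, while 30.5%, 31.3% and 13.5% of the 10962 mRNAs tested were. At an unadjusted p under 0.05 the members numbered 6, 9 and 10, beside 54.3%, 54.9% and 36.9% of all mRNAs. On the adjusted p alone, 2 members passed on day 8, both lower, beside 47.3% of all mRNAs (25.1% lower, 22.2% higher). On day 16, 6 passed, 5 lower and 1 higher, beside 48.4% (25.1% lower, 23.3% higher), and on day 24, 2 passed, both higher, beside 22.0% (11.3% higher, 10.8% lower). The median size of the log2 fold change was 0.138, 0.152 and 0.131 for the members on days 8, 16 and 24, against 0.676, 0.686 and 0.430 for all mRNAs tested. Since the rule used the same values, nothing is read from these shares. Nor does a p that misses the threshold show that a member did not change. The limma standard error of a member's log2 fold change was 0.132 to 0.210, and a change of that size lies within it. limma draws this error partly from the spread of all mRNAs tested, so it is not that of the member's own replicates alone.

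The small counts on the adjusted p changed when 1 library was left out. Without group A replicate 2 they numbered 6, 8 and 4 on days 8, 16 and 24, and without group B replicate 3 they numbered 4, 9 and 4. On day 8 they numbered 1 without group A replicate 3 or group B replicate 2. On day 16 they numbered 5 without group B replicate 2, 3 without group A replicate 1, group B replicate 1 or any library of group D, 2 without group A replicate 3 or group C replicate 2 or 3, and 1 without group C replicate 1. On day 24 they numbered 1 without group C replicate 3 and 0 without any of the remaining 9 libraries. The calls among all mRNAs, on the adjusted p and the fold change together, moved too. They went from 3340, 3436 and 1475 on days 8, 16 and 24 to 3704, 3844 and 2022 without group A replicate 2. Without group B replicate 3 they were 3346, 3493 and 1589, and without group D replicate 1 they were 3278, 3378 and 1027. The share of all mRNAs on the adjusted p alone is not given for these settings, so the counts of members have no background at the same threshold.

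Some members had day means well apart, and their values, named after they were seen, are given with no test. EVM0001139, the member of highest CV, had 59.3, 65.0 and 63.5 FPKM when fresh, 48.1, 42.8 and 41.9 after 8 days, 43.9, 46.2 and 43.0 after 16, and 44.8, 59.5 and 53.6 after 24. Its values of days 8 and 16 were all below the fresh ones, and those of day 24 overlapped with them. EVM0007085 had 61.4 to 69.5 FPKM when fresh, 45.1 to 51.4 in the 6 libraries of days 8 and 16, and 64.9, 65.2 and 62.4 after 24 days, within the fresh range. EVM0005249 had 54.6 to 64.4 FPKM in the 9 stored libraries and 42.2 to 46.2 in the fresh ones. EVM0009059 likewise had 50.8 to 64.8 FPKM in the stored libraries and 40.6 to 47.9 in the fresh ones.

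Groups that did not overlap were more common than calls. On day 8, 12 members had all 3 values above those of day 0 and 12 had all 3 below, beside 24.5% and 24.8% of all mRNAs tested (49.3% together). On day 16 the numbers were 8 above and 22 below (27.5%, 28.2% and together 55.7% of all mRNAs), and on day 24 they were 15 above and 10 below (21.6%, 17.5% and together 39.1%). In 49 members at least 1 stored group did not overlap with day 0, beside 71.5% of all mRNAs, and in the other 53 every stored group overlapped with it.

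Many mRNAs that were steady within every day were not steady across days. Of the 3268 mRNAs in the level range, 46.5% varied by at most 1.6 times among the 3 fresh replicates, 53.5% among those of 8 days, 83.8% after 16 days and 79.9% after 24. In every one of the 4 groups 839 did so, or 25.7%, and the 102 members are 12.2% of these. In 806 mRNAs the 4 day means lay within 1.6 times of each other, and 324 of these also met the limit within every group. The fresh and the day 8 replicates were thus those in which the fewest mRNAs met the limit.

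The number of mRNAs that met the rule on 3 of the groups depended on the group held out. The level range is then read on the other libraries, so the counts can exceed 102. An mRNA that stays within 1.6 times with the held-out group added meets the ratio limit over all 12 libraries. Those that stay are therefore nearly the same mRNAs each time, with 99 to 102 members among them. The shares below thus follow from how many were chosen and are no test of the choice. When the rule was applied to the 9 stored libraries alone, 355 mRNAs were chosen, and with the fresh libraries added 104 of them (29.3%) stayed within 1.6 times. In 150 of the other 251 the fresh mean was lower than the stored mean, and in 101 it was higher. In 78 of the 355 all 3 fresh values lay below all stored values, and in 26 above. When another group was held out fewer mRNAs were chosen and a larger share of them stayed. Without group B 190 were chosen and 102 stayed (53.7%), without group C 136 and 104 (76.5%), and without group D 186 and 100 (53.8%). The median distance of the held-out mean from the mean of the other libraries was 20.2% for group A, 11.5% for group B, 8.56% for group C and 17.2% for group D. Replicates also spread most in group A, as the shares above show, and the part of this spread in the held-out counts was not tested.

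**Figure D4:**
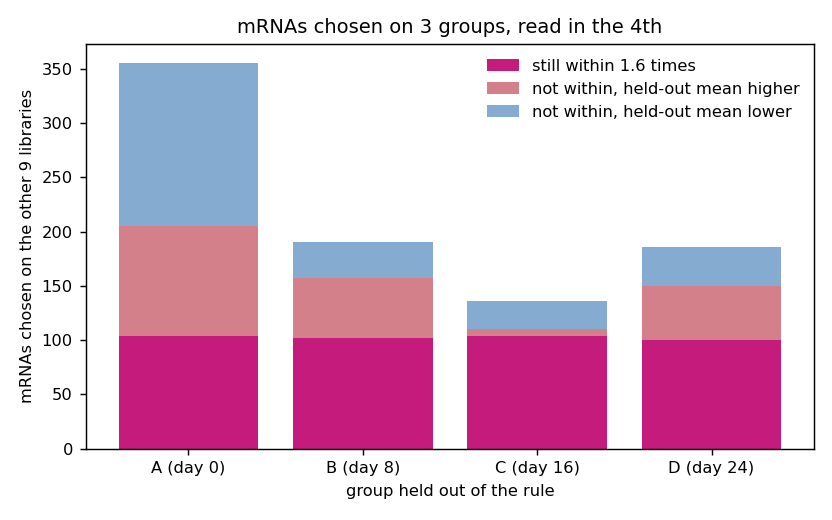
Number of mRNAs chosen by the rule on 9 libraries, by the group held out, split into those still within 1.6 times once the held-out group is added and those not, by whether the held-out mean was higher or lower. With group A held out 355 were chosen and 104 stayed, and with group C held out 136 were chosen and 104 stayed.

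Among the 12 steadiest mRNAs the number that stayed within the limit differed little between the days held out. Their overlap with the 12 steadiest members was smallest with day 0 held out. Of the 12 of lowest CV over the 9 stored libraries, 10 stayed within the limit with day 0 added, 9 were members and 4 were among the 12 steadiest members. EVM0004096 was the first in both orders, with a stored mean of 69.9 and a fresh mean of 70.0 FPKM, 0.14% apart. EVM0000239 was 0.36% lower on day 0 and EVM0007459 was 4.46% higher. EVM0007715, named after its values were seen, had 57.3 to 68.0 FPKM in all 9 stored libraries (CV 6.52%) and 33.6, 33.6 and 33.1 in the fresh ones, 46.9% lower. Its values were thus close together among stored fruiting bodies and apart from the fresh ones. EVM0011827, with 81.9 to 100.8 FPKM in the stored libraries, had 50.5, 91.2 and 59.9 on day 0, where replicate 2 alone lay in the stored range. With group B, C or D held out, 11 of the 12 steadiest stayed within the limit and 11 were members each time. In that order, 7, 8 and 8 were among the 12 steadiest members. The farthest held-out means were 27.1% higher (EVM0010042, day 8), 18.3% lower (EVM0003905, day 16) and 34.1% higher (EVM0007901, day 24).

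Single libraries also kept mRNAs out. When 1 library was left out, 104 to 148 mRNAs met the rule and 100 to 104 of these stayed once it was added back. Group B replicate 3 kept out the most mRNAs (46 of 148), then group A replicate 2 (41 of 142), while group C replicate 1 kept out 1 of 104. An mRNA steady in 11 libraries could be far off in the other: EVM0003476 was 55.1% higher in group B replicate 3 than its mean elsewhere. EVM0004096, EVM0000239, EVM0007459, EVM0003743, EVM0010280, EVM0007752 and EVM0009891 were among the 12 steadiest whichever library was left out, and the first 3 of these also whichever day was left out.

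The choice of members depended on how the libraries were scaled. FPKM as deposited needed almost no further scaling by the median mRNA, with median-of-ratios factors of 0.983 to 1.02. The sources do not say whether the deposited values had already been scaled between libraries. Of the 108 mRNAs that met the rule after median-of-ratios scaling, 99 were members. The sum of mRNA FPKM, in contrast, ran from 666845 to 931532, and the 66 mRNAs with a mean of 1000 or more held 14.4% to 34.3% of it. When each library was rescaled to the same sum, 115 mRNAs met the rule and 47 of them were members. With quantile normalization, which gives all libraries the same distribution, 123 met it and 66 were members. Under all 4 scalings 43 mRNAs were members, 7 of them among the 12 steadiest: EVM0004096, EVM0000239, EVM0007459, EVM0007752, EVM0009891, EVM0007590 and EVM0004058. EVM0004096 alone of the 12 was among the 12 lowest CVs under every scaling, with CVs of 5.17% after median-of-ratios scaling, 5.40% after quantile normalization and 7.73% after rescaling to equal sums. EVM0010280 went from 7.53% as deposited to 16.7% after rescaling to equal sums. Which of these scalings is nearest to RNA per cell cannot be told from the files, and in such bulk samples fewer cells of a kind and less RNA per cell cannot be told apart.

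**Figure D5:**
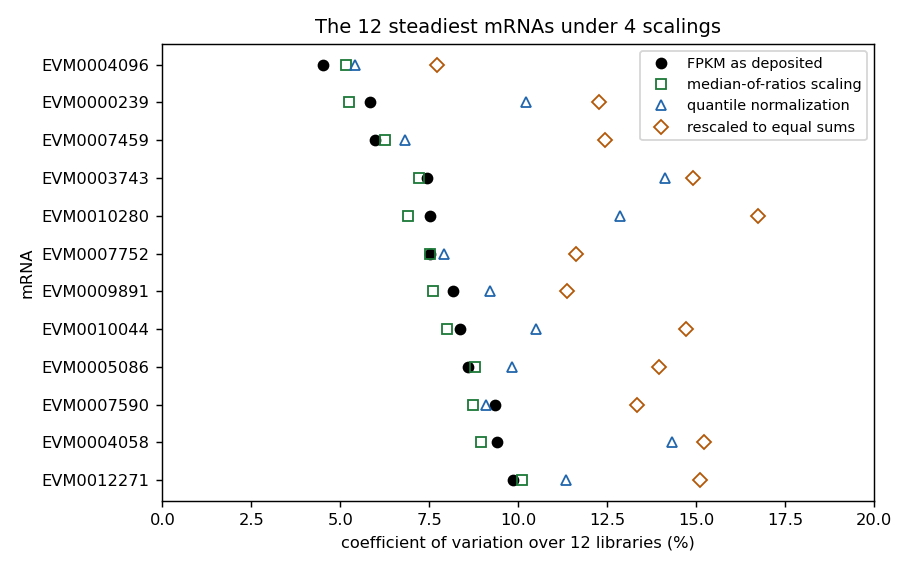
CV over the 12 libraries (horizontal, percent) of the 12 steadiest mRNAs under 4 scalings, with 1 marker for each scaling. EVM0004096 stays between 4.51% and 7.73%, while EVM0010280 runs from 6.91% after median-of-ratios scaling to 16.7% after rescaling to equal sums.

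The ratio of 2 mRNAs in the same library does not change when the library is divided by a factor, though quantile normalization can change it, and it is the basis of the geNorm M value, the SD of the log2 ratio of an mRNA to another, averaged over all other candidates. M over the 102 members was 0.184 to 0.291 (median 0.241). These candidates were chosen on FPKM as deposited, so the rule also limits M, and another scaling would have given other candidates. The lowest values belonged to EVM0000239 (0.184), EVM0004096 (0.190) and EVM0010044 (0.195), and the highest to EVM0001139. Of all pairs, the ratio of EVM0000239 to EVM0010280 varied least (SD of the log2 ratio 0.0751, against a median of 0.240 over the 5151 pairs). When the member of highest M was removed step by step, the last pair was EVM0010042 and EVM0010229, whose ratio had an SD of 0.0784 and stayed between 0.851 and 1.03. Both have ordinary CVs, 13.1% and 12.98%, and both had their highest day mean on day 8. EVM0010042 had 60.03, 66.7 and 59.7 FPKM on day 0 and 83.7, 73.8 and 77.0 on day 8, and EVM0010229 had 61.9, 78.4 and 65.6 on day 0 and 81.5, 80.6 and 83.9 on day 8. Stepwise geNorm thus ended on mRNAs that varied together (r = 0.909 across the 12 libraries) and not on those of lowest CV, of which 3 were among its last 10.

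A mean of several members was steadier than a single one. The geometric mean of EVM0004096, EVM0000239 and EVM0007459 ran from 68.7 FPKM in group B replicate 2 to 74.0 in group A replicate 2, a ratio of 1.08 and a CV of 2.83%. On the log2 scale its mean on days 8, 16 and 24 lay at -0.02, -0.04 and 0.00303 from day 0. The geometric mean of EVM0000239, EVM0004096 and EVM0010044, the 3 of lowest M, had a CV of 3.80%, that of the 12 steadiest 2.93%, and that of all 102 members 3.52%. These CVs were taken on the values that chose the mRNAs, and describe these libraries only.

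None of the 18 mRNAs that the study named, for their products or for RT-qPCR, was a member, and 14 of them lay in the level range. The study chose them with these libraries in view, so their absence is no separate evidence. Their ratios of highest to lowest FPKM ran from 3.97 (EVM0006666) to 169.5 for EVM0007108, the alcohol dehydrogenase ADH1 of ethanol fermentation, with a median of 12.3.

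The same rule found 1 stable lncRNA, XLOC_004790, among 386 lncRNAs in the level range and 1003 in all. Its mean was 312 FPKM and its values ran from 251 to 364, with a CV of 11.4%. This is 0.259% of the lncRNAs in the range, beside 3.12% of the mRNAs, and the median ratio of highest to lowest was 4.67 for the lncRNAs of the range. The shares were not tested against each other.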

How the data were processed

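Ribosomal RNA was removed from total RNA, strand-preserving libraries were sequenced, and per the labels the authors used cutadapt 2.7, FastQC 0.11.8, HISAT2 2.1.0 and StringTie 1.3.3b. The deposited values are FPKM per gene, in 1 table of mRNAs and 1 of lncRNAs, estimated by the authors per transcript length and per mapped reads. Columns were matched to samples by title. The study lists reads per library, but no read counts per gene were used. The number of reads behind a value is therefore unknown, and limma on log values took the place of a count test. The sources do not state whether counting used strand, or whether the FPKM were scaled further between libraries.

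The rule and the spread measures were applied to FPKM as deposited. limma 3.58.1 (R 4.3.3) was fitted on log2(FPKM divided by a median-of-ratios factor + 1), with day as a factor and a mean-variance trend, over the 10962 mRNAs that reached an FPKM of 1 in 3 or more libraries, with Benjamini-Hochberg adjustment.

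Named mRNAs were the 12 members of lowest coefficient of variation, the steadiest of each level range, those at the edges of the rule, the 3 of lowest geNorm M and the 18 named by the study; others were named after their values were seen. Members and lists were chosen with earlier results of these data known. Alternatives were other scalings, ratio limits, level ranges, filters and pseudocounts, a replicate block, and omitted libraries or days. Python 3.11.15 and matplotlib 3.10.9 made the figures. Of the gene identifiers, 0 matched the reference gene table.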

Additional observations from a re-analysis of the deposited data

How the results depend on the processing

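The number of stable mRNAs follows the limits directly. It was 53 at a ratio limit of 1.5, 238 at 1.8 and 413 at 2, where the median CV was 17.0%, and 216 with means from 20 to under 1000 FPKM. It was 355 without day 0, 190 without day 8 and 186 without day 24, and 104 to 148 without a single library, with median CVs of 12.4% to 13.1%. Other scalings left the number within 1.5 times but changed the members. At a ratio limit of 2, 13 lncRNAs met the rule.

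The members past the adjusted p at any fold numbered 10 on day 8 and 1 on day 24 with quantile normalization. With 1 library left out they numbered 1 to 6, 1 to 9 and 0 to 4 on days 8, 16 and 24. These small counts depend on the setting, and the cause was not tested. The share of all mRNAs on the adjusted p alone is not given for any alternative setting, so the counts have no background beside them. Calls that also require the fold change are at another threshold. With the fold change also required, quantile normalization gave 3318 and 1434 calls among all mRNAs on days 8 and 24, against 3340 and 1475. Log2 fold changes of the steadiest members shifted with quantile normalization. Those of EVM0004096 on days 8, 16 and 24 went from -0.087, 0.00588 and 0.019 to 0.025, 0.129 and -0.00569. With no scaling they were -0.057, 0.011 and 0.042. That of EVM0000239 on day 16 went from -0.055 to 0.116 with quantile normalization. The shifts were not tested against the spread of each mRNA's own replicates. With the replicate number as a block 3 members passed on day 16 and 0 on day 24. With the fold change also required, 3442 and 1438 of all mRNAs were called under this block, against 3436 and 1475. The labels do not say whether the numbers pair the samples. Of 18 same-numbered pairs of libraries, 4 had a correlation of their deviations over 0.1. Just 1 library correlated best with its own number in every other group. These values show no clear pairing and cannot exclude one.

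FPKM carries no read depth, so how much of a member's spread is counting error is unknown.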
